A study of Mus musculus with 4 samples.

Results

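The lysyl oxidases and the enzymes that modify or process procollagen were followed in the mammary gland of mice lacking Mt2-mmp, the membrane-anchored metalloproteinase whose gene symbol is Mmp15. The family was defined by 10 symbols, Lox, Loxl1, Loxl2, Loxl3, Plod1, Plod2, P4ha1, P4ha2, Pcolce and Bmp1, and a probe set was a member when its annotation carried exactly 1 of them. This gave 16 of the 45037 non-control probe sets, which cover 9 of the 10 genes, out of 17097 genes with a probe set of their own. P4ha1, a catalytic subunit of prolyl hydroxylase, was not analysed here, as none of the annotated probe sets named it. A further 3 probe sets shared by a member and another gene fell outside the definition and were not used.

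Total RNA of whole inguinal glands at postnatal day 10 was measured on 4 single-colour Affymetrix arrays. Both genotypes were congenic on C57Bl/6J: 2 arrays came from Mt2-mmp(-/-) mice, in which the gene is lost in every tissue, and 2 from Mt2-mmp(+/+) littermates. Pooling of mice and their sex are not given in the sources, and the labels call the arrays of a genotype biological replicates. At this age a small epithelial tree lies in a fat pad with stroma and vessels, so a lower value can mean fewer cells of a type or less RNA per cell, and these cannot be told apart. The luminal keratin Krt8 read 9.01 to 9.47 and the adipocyte hormone Adipoq 13.14 to 13.26 in the 4 arrays, far above the nonspecific controls. Mmp15 itself was not analysed here, so it gives no check of the genotype labels.

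Fibrillar collagen is made in several enzymatic steps. Inside the cell, prolyl hydroxylases stabilise the triple helix and lysyl hydroxylases prepare lysines for glycosylation and crosslinking. Outside the cell, procollagen proteinases such as Bmp1 trim the propeptides, helped by Pcolce, and lysyl oxidases then oxidise lysine side chains so that collagen and elastin fibres become crosslinked. Stromal fibroblasts are a main source of these enzymes, and collagen crosslinking sets how stiff the stroma around mammary ducts is.

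Several of these genes, among them P4ha2, Plod2 and Lox, are known targets of hypoxia-inducible factors, which bind a core of the letters ACGTG or GCGTG. The 250 bases before the transcription start of P4ha2 and Plod1 are shown because these hydroxylases had the widest ranges over the 4 arrays among the brightest probe sets of the family. Capitals mark every match to either core on either strand, so that CACGT and CACGC are also capitals; matches may overlap. Both windows were read from the RefSeq promoter table of build GRCm38.p6 and lie 5′ of the annotated gene, P4ha2 at chr11:54100674-54100923 on the plus strand and Plod1 at chr4:147936777-147937026 on the minus strand.
P4ha2: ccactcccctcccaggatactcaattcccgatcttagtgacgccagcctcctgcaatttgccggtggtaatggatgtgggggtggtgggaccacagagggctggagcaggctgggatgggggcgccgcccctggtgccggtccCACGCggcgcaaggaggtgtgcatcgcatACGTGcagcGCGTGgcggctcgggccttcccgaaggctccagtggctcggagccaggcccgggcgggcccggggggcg
Plod1: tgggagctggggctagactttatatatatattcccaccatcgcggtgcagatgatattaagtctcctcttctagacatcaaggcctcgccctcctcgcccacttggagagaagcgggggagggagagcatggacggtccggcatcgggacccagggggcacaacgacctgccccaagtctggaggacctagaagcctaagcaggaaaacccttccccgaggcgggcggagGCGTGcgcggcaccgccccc
The P4ha2 window held 3 matches and the Plod1 window 1. Among the 32851 windows of this length that the table lists, 38.6% held at least 1 match, and 6.6% held at least 3. The table had windows for 4 of the 10 symbols, and a match describes letters, not binding.

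No member passed the test of genotype. All values are deposited RMA log2 values, a normalised log scale of probe set brightness, and every fold change or difference is knockout minus wild type on that log2 scale, with n = 2 arrays each. Of the 16 member probe sets 0 passed an adjusted p of 0.05 (limma, Benjamini-Hochberg over 45037 probe sets, adjusted p of 0.744 to 0.989). The background of calls was itself close to empty, 0.00444% of all probe sets, which were Gadd45gip1 and Prdx2 and both lower in knockouts. At an unadjusted p under 0.05, limma gave 2 members, both probe sets of Loxl1 and both higher, where 3.48% of all probe sets were higher at that level.

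The members nevertheless lay on one side. The fold change was above 0 in 15 of 16 probe sets, with a median of 0.17 on the log2 scale, against 49.3% above 0 and a median of -0.0012 over all probe sets. On the brightest probe set of each gene all 9 genes lay above 0, with a median of 0.19. The groups did not overlap, with knockouts higher, in 6 of 16 probe sets, where the background was 17.8%, and with knockouts lower in 1, where it was 18.6%. In the other 9 the groups overlapped. The 6 with knockouts higher belonged to Lox, Loxl1 and Bmp1 only. On the brightest probe set of each gene, 2 of 9 genes were apart with knockouts higher (22.2%), close to the 18.2% of all 17097 genes. With knockouts lower it was 0 of 9, where 19.4% of all genes were.

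The members shared their highest and their lowest array. On the brightest probe set of each of the 9 genes, knockout 2 was the highest array and wild type 2 the lowest, and knockout 1 and wild type 1 lay between them. Over all 16 probe sets knockout 2 was highest in 14 and wild type 2 lowest in 11, while over the whole table these shares were 24.9% and 26.7%. Leaving out wild type 2 lowered the members' median from 0.17 to 0.073 and left 11 of 16 probe sets above 0. Leaving out knockout 2 gave 0.089 and 14 above 0. Without wild type 1 the median was 0.26, and without knockout 1 it was 0.21, with 15 above 0 in both cases. On the brightest probe set of each gene, 6 of 9 genes lay above 0 without wild type 2, with a median of 0.041. Without knockout 2 it was 8 of 9, with a median of 0.11. All 9 stayed above 0 without wild type 1 (median 0.31) or without knockout 1 (median 0.24).

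**Figure D1:**
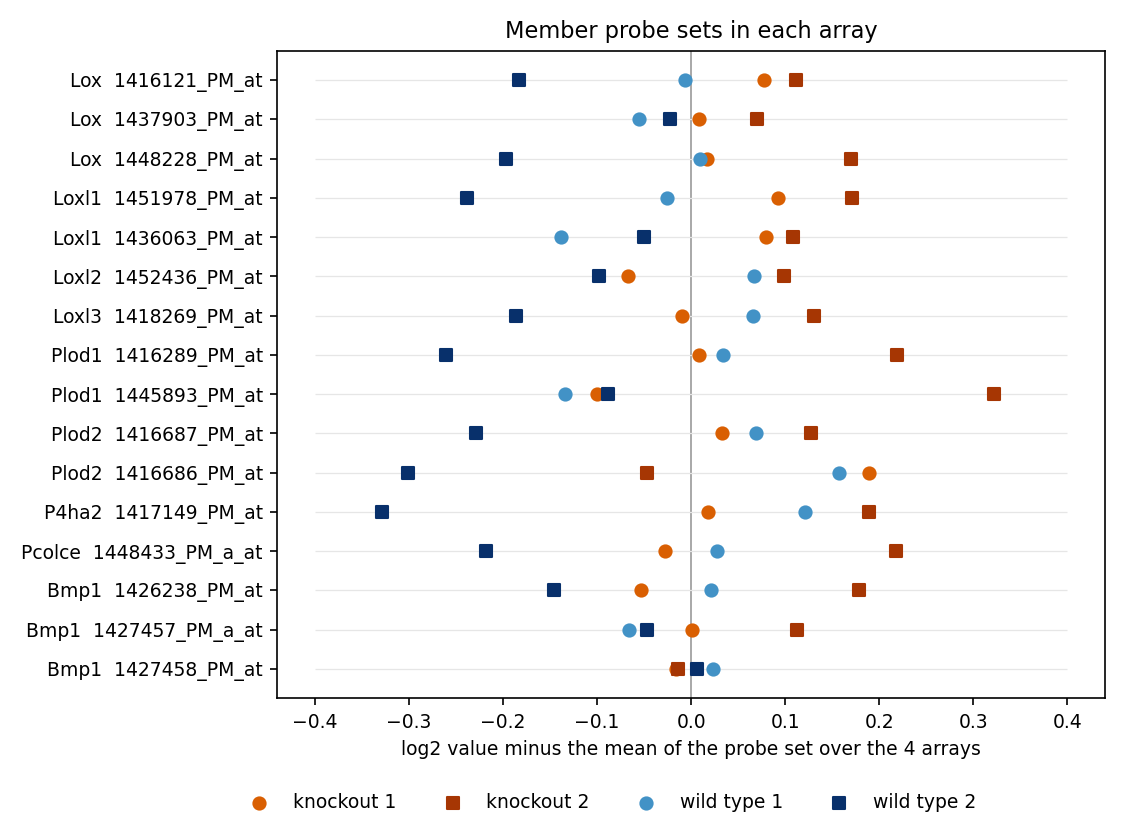
Each row is a member probe set and each symbol 1 array, plotted as its log2 value minus the mean of that probe set over the 4 arrays (2 knockout, orange; 2 wild type, blue). Knockout 2 is the rightmost symbol in 14 of 16 rows and wild type 2 the leftmost in 11.

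Among the lysyl oxidases, Loxl1, which crosslinks elastin and collagen and is needed to keep elastic fibres in adult tissue, had the largest difference of the family. Its probe set 1451978_PM_at read 11.10 and 11.18 in knockouts 1 and 2 and 10.99 and 10.77 in wild type 1 and 2. Both knockouts lay above both wild types, a log2 fold change of 0.26 (SE 0.095, 95% interval 0.026 to 0.50), or 1.20-fold, with a limma adjusted p of 0.744. Without wild type 2 the difference was 0.16.

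The second Loxl1 probe set, 1436063_PM_at, read 7.09 and 7.12 in knockouts 1 and 2 and 6.88 and 6.97 in wild type 1 and 2. Here too the groups were apart, by 0.19 (SE 0.071, limma adjusted p = 0.746), and here wild type 1 rather than wild type 2 was the lowest array. Without wild type 2 this difference was 0.23. Both Loxl1 probe sets had intervals that stayed above 0 before adjustment, which no other member did.

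Lox, the founding enzyme of the family, which initiates collagen and elastin crosslinking, had 3 probe sets. The first, 1416121_PM_at, read 9.41 and 9.44 in knockouts 1 and 2 and 9.32 and 9.15 in wild type 1 and 2. Both knockouts lay above both wild types, and the group means differed by 0.19 (SE 0.085, 95% interval -0.024 to 0.40), with a limma adjusted p of 0.772.
Its probe set 1448228_PM_at read 8.04 and 8.19 in knockouts 1 and 2 and 8.03 and 7.82 in wild type 1 and 2. The difference was 0.19 (SE 0.10), and knockout 1 and wild type 1 were almost level. The third, 1437903_PM_at, was dim at 3.46 to 3.58, where the nonspecific control probe sets of the arrays had medians of 3.26 to 3.28, and differed by 0.079 (SE 0.069). All 3 had knockouts above wild types, by 0.10, 0.084 and 0.095 without wild type 2 in the order given.

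Loxl2 and Loxl3, lysyl oxidases with scavenger receptor domains, differed less. The Loxl2 probe set read 6.60 and 6.77 in knockouts 1 and 2 and 6.74 and 6.57 in wild type 1 and 2. The groups overlapped, with a fold change of 0.031 (SE 0.096, 95% interval -0.21 to 0.27, limma adjusted p = 0.989). Its sign depended on single arrays, at -0.051 without wild type 2 and -0.052 without knockout 2.
The Loxl3 probe set read 7.46 and 7.60 in knockouts 1 and 2 and 7.54 and 7.29 in wild type 1 and 2. Wild type 1 lay above knockout 1, the fold change was 0.12 (SE 0.11), and it was -0.0055 without wild type 2. The intervals of Loxl1 and Loxl2 overlapped, and a difference between family members was not tested.

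**Figure D2:**
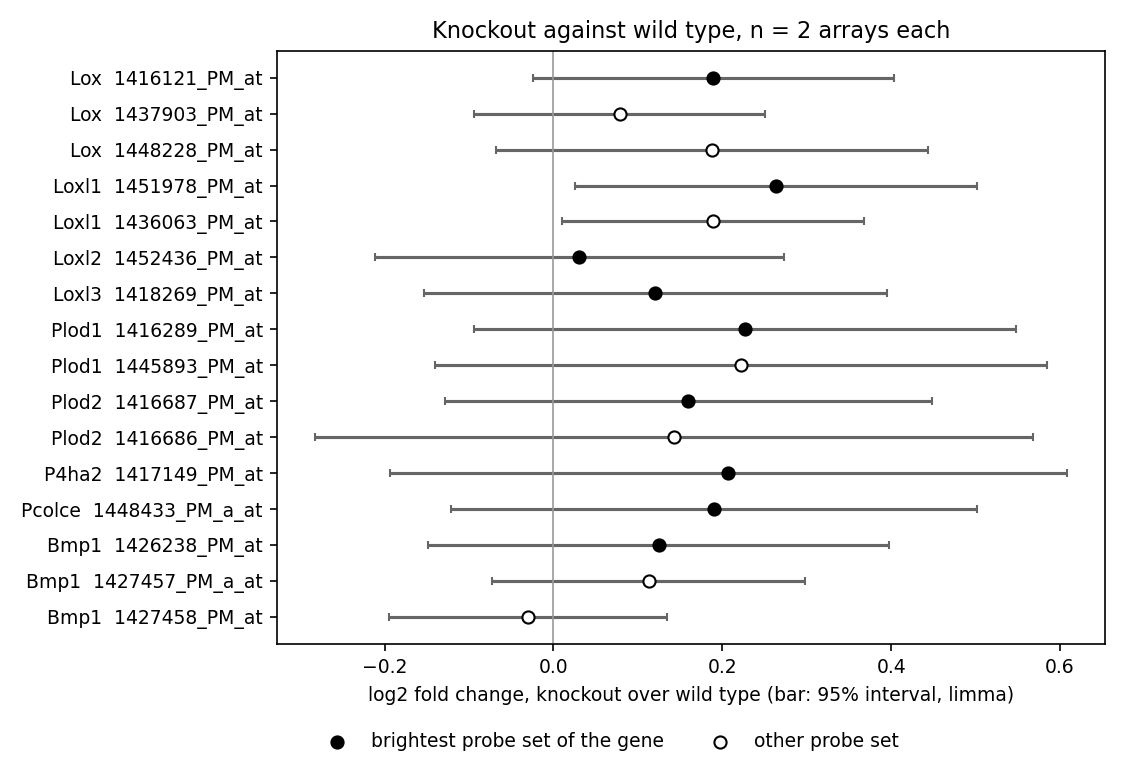
Each row is a member probe set with its log2 fold change of knockout over wild type (point) and 95% interval from limma (bar), n = 2 arrays per genotype; filled points are the brightest probe set of a gene. Points lie right of 0 in 15 of 16 rows, and the bars of the 2 Loxl1 probe sets alone stay clear of 0.

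In the lysyl hydroxylases the groups overlapped in all 4 probe sets. Plod1 acts on lysines of the collagen helix, and its probe set 1416289_PM_at read 8.48 and 8.69 in knockouts 1 and 2 and 8.51 and 8.21 in wild type 1 and 2. Wild type 1 lay slightly above knockout 1. The fold change was 0.23 (SE 0.13, limma adjusted p = 0.798) and 0.079 without wild type 2.
The dimmer probe set of Plod1, 1445893_PM_at, read 4.98 and 5.40 in knockouts 1 and 2 and 4.95 and 4.99 in wild type 1 and 2. Knockout 2 stood apart from the other 3 arrays. The fold change of 0.22 (SE 0.14) was 0.011 without knockout 2.

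Plod2, which hydroxylates telopeptide lysines used in stable crosslinks, had 2 probe sets from the same transcript record, whose arrays ranked differently. In 1416687_PM_at knockouts 1 and 2 read 7.21 and 7.31 and wild type 1 and 2 read 7.25 and 6.95. In 1416686_PM_at they read 7.01 and 6.77 against 6.98 and 6.52. Wild type 2 was the lowest array in both, and knockout 2 was highest in the first but below knockout 1 and wild type 1 in the second. Their fold changes were 0.16 (SE 0.115) and 0.14 (SE 0.17, limma adjusted p = 0.922), and without wild type 2 they were 0.011 and -0.086.

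P4ha2, a catalytic subunit of collagen prolyl hydroxylase, had the widest range of the family's brightest probe sets, 0.52 on the log2 scale. It read 8.82 and 8.99 in knockouts 1 and 2 and 8.92 and 8.47 in wild type 1 and 2. The 2 wild-type arrays differed by 0.45, more than the genotypes did. The fold change was 0.21 (SE 0.16, 95% interval -0.19 to 0.61, limma adjusted p = 0.851), and it was -0.018 without wild type 2.

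Of 17097 genes, the 3 whose brightest probe set followed P4ha2 most closely over the 4 arrays were Col15a1, a collagen of basement membrane zones, Ddias and Ptchd4. The root mean square distance to P4ha2, after each gene was centred on its own mean, was 0.0058, 0.014 and 0.017 on the log2 scale. Col15a1 read 8.63 and 8.80 in knockouts 1 and 2 and 8.73 and 8.27 in wild type 1 and 2, the same order of arrays. With 4 arrays such closeness is a description only.

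In procollagen processing, Pcolce, the enhancer of the C-proteinase, read 10.56 and 10.81 in knockouts 1 and 2 and 10.62 and 10.37 in wild type 1 and 2. Each genotype held a gap of 0.25 between its arrays, larger than the fold change of 0.19 (SE 0.12, limma adjusted p = 0.823). Without wild type 2 the fold change was 0.067.
Bmp1, the C-proteinase itself, had 3 probe sets. In 1426238_PM_at knockouts 1 and 2 read 8.76 and 8.99 and wild type 1 and 2 read 8.84 and 8.67, a difference of 0.12 (SE 0.11) with overlapping groups. It was 0.041 without wild type 2 and 0.0086 without knockout 2. In 1427457_PM_a_at knockouts 1 and 2 read 5.85 and 5.97 against 5.79 and 5.81, apart by 0.11 (SE 0.074). The third, 1427458_PM_at, spanned only 0.040 over the 4 arrays, from 4.61 to 4.65, and was the 1 member below 0 (-0.030, SE 0.065).

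Most other measured genes of collagen modification also lay above 0, which rested largely on wild type 2 and knockout 2. Of 26 listed enzymes and chaperones 22 were measured on the brightest probe set, 20 lay above 0, their median was 0.075, and 0 passed in either direction, where 48.8% of all 17097 genes lay above 0 and their median was -0.0022. Without wild type 2 only 12 of 22 lay above 0, with a median of 0.0064, and without knockout 2 it was 14, with a median of 0.044. Without knockout 1 it was 20, with a median of 0.12, and without wild type 1 it was 19, with a median of 0.13. By smallest p the list was led by Tgm2, a transglutaminase that crosslinks matrix proteins (0.29, SE 0.090), Colgalt2, a collagen galactosyltransferase (0.25, SE 0.083), Tll1, a proteinase related to Bmp1 (0.17, SE 0.072), and the prolyl 3-hydroxylase P3h1 (0.26, SE 0.12), with limma adjusted p of 0.727 to 0.773. P3h1 read 7.71 and 7.80 in knockouts 1 and 2 and 7.65 and 7.33 in wild type 1 and 2, so wild type 2 was again lowest. Loxl4, the remaining lysyl oxidase, had -0.14 (SE 0.094), and Adamts3, a procollagen N-proteinase, -0.13; both were chosen after their values were seen, as the 2 genes of the list below 0.

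The substrates of these enzymes lay on both sides of 0. Of 13 measured collagens, elastin and binding partners 9 lay above 0, their median was 0.035, and 0 passed. Col1a1, the main chain of type I collagen, had 0.18 (SE 0.081) and elastin, Eln, 0.12 (SE 0.068), while Col11a1, a minor fibrillar chain, had -0.26 (SE 0.066) and the proteoglycan Fmod -0.15 (SE 0.093), all with a limma adjusted p of 0.705 or more. Wild type 1 lay above wild type 2 in all 13, where 48.8% of all 17097 genes did so. Knockout 2 lay above knockout 1 in 11 of 13, where 52.3% of all genes did so. Without wild type 2 the substrate median was 0.0012, with 7 above 0; without knockout 2 it was -0.016, with 6 above 0; and without knockout 1 or wild type 1 it was 0.088 and 0.073.

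Hypoxia targets and TGF-beta genes, whose pathways are known to control Lox, Plod2 and the prolyl hydroxylases, were split or leaned lower. Among 12 hypoxia targets 7 lay above 0 (median 0.057) and 0 passed. The oxygen-sensing hydroxylase Egln3 had -0.56 (SE 0.069) and the kinase Pdk1 -0.33 (SE 0.089), while the vascular peptide Adm had 0.73 (SE 0.14) and Ankrd37 0.25 (SE 0.088), with limma adjusted p of 0.472 to 0.739. In 11 measured TGF-beta genes 3 lay above 0 (median -0.050) and 0 passed, with the ligand Tgfb1 at 0.21 (SE 0.091), Ccn2, a matricellular target, at -0.22 (SE 0.11), the receptor Tgfbr1 at -0.14 (SE 0.083) and the latent binding protein Ltbp2 at -0.089 (SE 0.070). With 1 array left out, the hypoxia median was lowest without knockout 2 (0.0105) and highest without knockout 1 (0.096), while the TGF-beta median stayed between -0.041 and -0.011.

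**Figure D3:**
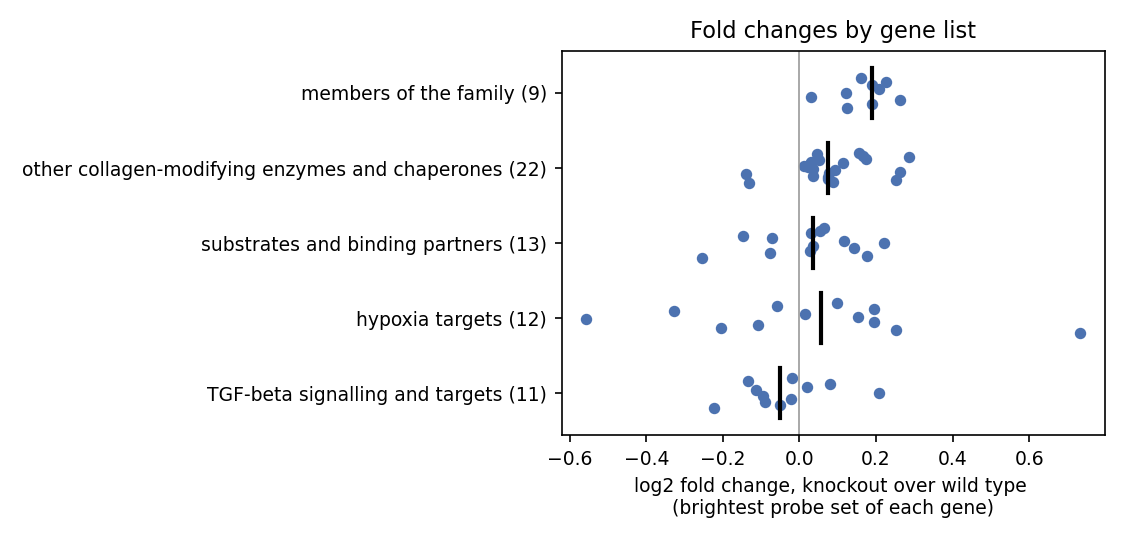
Each point is 1 gene on its brightest probe set, at its log2 fold change of knockout over wild type, grouped by list with the number of measured genes; vertical spread only separates points and black bars are medians. The family's 9 genes all lie right of 0 (median 0.19), and the medians of the other lists lie between -0.050 and 0.075.

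Marker genes of other cells moved between the same arrays, and their part in the members' values was not tested. Epidermis and hair follicle markers (9 genes, 4 above 0) averaged 8.21 on the log2 scale in knockout 1 and 8.03 in wild type 2, while knockout 2 had 4.98 and wild type 1 5.13, a gap carried by the hair follicle genes Tchh, Krt25, Krt27 and Krt71 and the desmosome-related genes Dsp and Perp. The epidermal marker Krt10, a keratin of the upper epidermis, did not follow it. Krt10 read 7.16 in knockout 1 and 7.17 in wild type 2 against 7.22 and 7.20 in knockout 2 and wild type 1. Krt1 and Lor stayed within 3.85 to 3.98 and 3.44 to 3.69. Both were too near the nonspecific controls, with medians of 3.26 to 3.28, to show epidermal content. Within each genotype the members' brightest probe sets were lower in the array rich in the follicle genes. In the pair rich in them, 1 array against 1, knockout 1 lay above wild type 2 in 14 of 16 member probe sets (median difference 0.18), where 48.9% of all probe sets did (median -0.0034). In the pair poor in them, again 1 against 1, knockout 2 lay above wild type 1 in 14 of 16 (median difference 0.14), where 50.5% of all probe sets did (median 0.0017). Knockout 1 must lie above wild type 2 wherever wild type 2 is the lowest array. Likewise knockout 2 must lie above wild type 1 wherever knockout 2 is the highest. Both comparisons therefore mostly restate the order of arrays given above, and they do not separate genotype from follicle content. The hair follicle protein gene Tchh read 10.74 and 10.37 in the rich pair, and in knockout 2 and wild type 1 it read 3.49 and 4.03, close to the nonspecific controls. Fibroblast markers (8 genes, 6 above 0) had means of 9.63 and 9.77 in knockouts 1 and 2 and 9.65 and 9.54 in wild type 1 and 2, the same order of arrays as the means of the 9 members, 8.71 and 8.87 against 8.75 and 8.50. The markers did not move as 1: Thy1 had the largest fold change, 0.35, Lum and Vim had 0.040 and -0.0020, and Pdgfra, at 4.85 and 5.09 against 5.12 and 5.18, was lower in both knockouts (-0.18). No defining fibroblast marker was near the nonspecific controls.

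Brown adipocyte markers (4 genes, 4 above 0) had means of 10.18 and 9.68 in knockouts 1 and 2 and 8.97 and 8.76 in wild type 1 and 2, luminal markers (8 genes, 0 above 0) 8.19 and 8.12 against 8.42 and 8.34, and basal markers (5 genes, 0 above 0) 8.20 and 7.95 against 8.31 and 8.52. Endothelial markers (6 genes, 5 above 0) had means of 9.05 and 9.27 against 9.02 and 8.94, and skeletal muscle markers (6 genes, 5 above 0) 5.27 and 6.30 against 5.55 and 5.32. Cell cycle genes (5 genes, 0 above 0) had 8.51 and 8.57 against 9.08 and 8.19, macrophage markers (6 genes, 0 above 0) 7.18 and 7.34 against 7.44 and 7.37, white adipocyte markers (3 genes, 2 above 0) 11.56 and 11.60 against 11.12 and 10.60, and nerve and Schwann cell markers (3 genes, 2 above 0) 8.47 and 8.57 against 8.42 and 8.29. The white adipocyte gap came from Lep (2.19), with Adipoq at -0.035 and Fabp4 at 0.016, and most of the nerve gap from S100b (0.49), with Mbp at 0.016 and Sox10 at -0.012. Some of these counts depended on single arrays. Skeletal muscle markers had 2 of 6 above 0 without knockout 2, and 5 with any other array left out. Cell cycle genes had 5 of 5 above 0 without wild type 1, and at most 1 with any other array left out. Macrophage markers had 3 of 6 above 0 without knockout 1, 2 without wild type 1 and 0 otherwise. No marker of these lists passed. The control probe sets for ribosomal 18S RNA averaged 7.98 in wild type 2 and 7.41 to 7.55 in the other 3 arrays, while the log2 difference between the 3′ and 5′ Gapdh control probe sets was 0.53 to 0.60 in all 4.

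**Figure D4:**
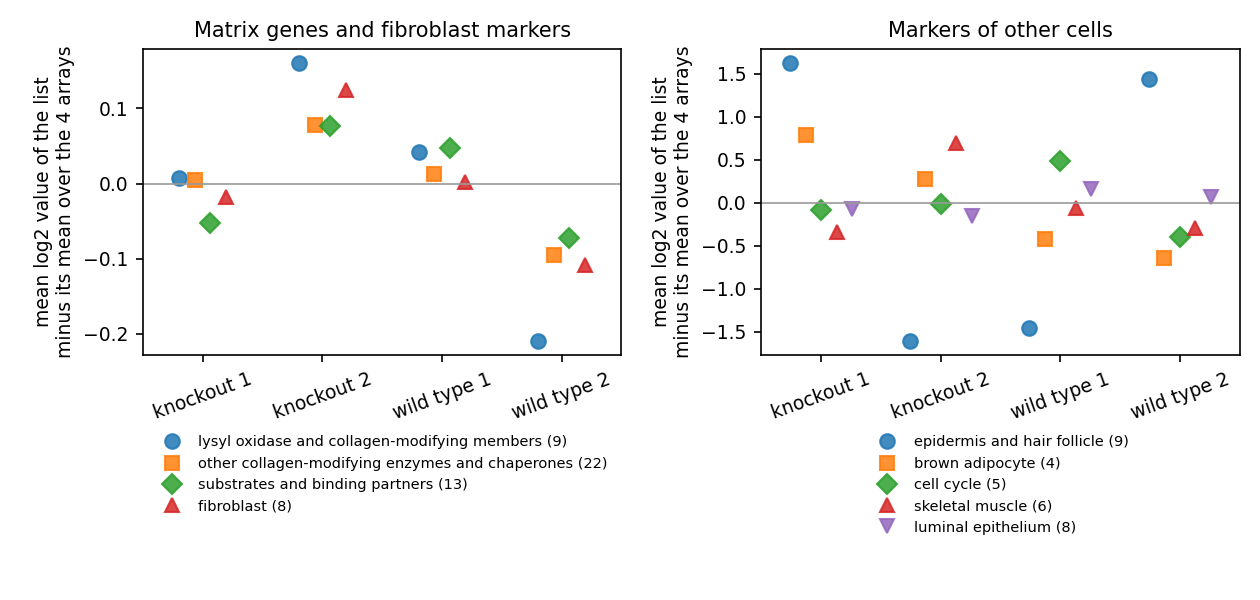
For each array (x axis) the symbols give the mean log2 value of a gene list minus its mean over the 4 arrays (y axis; the panels have different scales), with the number of measured genes. In the left panel all 4 lists are highest in knockout 2 and lowest in wild type 2; in the right panel the mean of the epidermis and hair follicle list, carried by its follicle genes, Dsp and Perp, is high in knockout 1 and wild type 2 and low in the other 2 arrays.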

How the data were processed

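Whole-gland RNA was labelled with biotin from 200 ng of total RNA, per the labels' protocols. Per the submitters' processing notes the authors ran RMA from affy, and the file holds the resulting log2 value of each probe set. The version of affy is not given. RMA forces the arrays to 1 distribution and compresses changes of dim probe sets. Medians of the 4 arrays lay between 5.20 and 5.21. The file held 45141 probe sets, of which 104 controls were left out; 28898 had 1 symbol in the platform annotation used here, 551 several and 15588 were not listed. For lists, the probe set of highest mean stood for a gene.

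Knockout was compared with wild type by lmFit and eBayes of limma 3.58.1 (R 4.3.3), two-sided, without covariates or filter, with 2 residual and 3.43 prior degrees of freedom and Benjamini-Hochberg adjustment over 45037 probe sets. The number of arrays limits precision: the median SE was 0.081 and the median 95% interval reached 0.20 to either side. With 2 arrays per genotype the smallest p of an exact permutation test is 0.333, and p-values measure only the spread between these arrays. The steps were run on simulated data in which 200 probe sets were changed. Of changes of 0.5 on the log2 scale 1.04% were recovered, of changes of 1 76.6%, and of changes of 1.5 94.5%. Unchanged probe sets made up 5.28% of the simulated calls. The simulated arrays varied independently, without shared shifts in cell content, and the 200 changes eased the adjusted threshold. In the data only 2 probe sets passed, so the recovered shares need not hold there. Ucp1, with a fold change of 1.64, had a limma adjusted p of 0.653 in the data. Every member probe set is reported; of each pathway list, genes past the threshold or else the 4 of smallest p are named, and for the member of widest range the 3 genes nearest to it. Members, lists and the naming rule were chosen with earlier results of these data known, so no list was tested as a set.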

Additional observations from a re-analysis of the deposited data

How the results depend on the processing

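No member passed under any alternative run: quantile normalization, median centring, a minimum mean log2 value of 5, the brightest probe set or the mean per gene, eBayes with a trend on intensity or with robust variances, the replicate block, and each array left out. The lowest adjusted p of a member over these was 0.485, without wild type 1. The members' median lay between 0.15 (mean of a gene's probe sets) and 0.19 with all arrays, and between 0.073 and 0.26 with 1 array left out, where 11 to 15 of 16 probe sets were above 0. Directions changed without wild type 2 for Plod2 probe set 1416686_PM_at (-0.086 to 0.37 over the arrays left out), P4ha2 (-0.018 to 0.43), Loxl3 (-0.0055 to 0.25) and Loxl2 (-0.051), and without knockout 2 for Loxl2 (-0.052 to 0.11 over the arrays left out). The cause was not tested, and a lone array was assumed to vary as much as the other genotype.

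Over all probe sets the count of calls was 2, and it was 5 with quantile normalization, median centring, the mean of at least 5, the trend or robust variances, 1 with the brightest probe set, 0 with the mean of probe sets, and 0 to 5 with 1 array left out. With the replicate number as a block it was 0, and 0 members passed. The labels do not say that a number marks a shared litter, and deviations of same-numbered arrays correlated at -0.295 over probe sets. A crossed pairing, added after the data were seen, gave 0 calls and 0 member calls. The counts of gene lists with 1 array left out were also added after the data were seen. Fold changes of the size seen in this family lie near or within the median unadjusted 95% interval and were not detectable at the adjusted threshold with 2 arrays per genotype.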
